A study of Mus musculus with 31 samples.

Results

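The exons described here are cassette exons that the cortex of wild-type (WT) mice skips and keeps at comparable rates, measured by RASL-seq in 3 mouse models of Huntington's disease (HD). RASL-seq counts probe pairs ligated across known splice junctions, so each event yields a count for skipping (short) and a count for retention of the exon (long). Exclusion is 100 × short/(short + long), and higher exclusion means that the exon was skipped more often. An event was taken when it was a cassette exon, when its listed positions spanned over 1500 and under 15000 bp, and when its mean exclusion in the WT mice was from 30 to 70% in every set of files that lists it. Of 1922 events in the series and 1238 cassette exons of this span, 290 under 276 listed gene symbols met the rule. Of the others, 498 were mostly included (below 30% exclusion in the WT mice of every set) and 368 mostly skipped (above 70%). The WT level of the 290 exons is therefore a property of the choice and no finding. The R6/2 files list 267 of them, the Q150 files 273 and the Q175 files 283, and 263 are in all 3 sets.

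The 31 mice gave 1 cortex library each and received no treatment. R6/2 HD mice carry a transgene with exon 1 of mutant human huntingtin beside their intact mouse gene, and 3 of them (mice 860, 868 and 869) were compared with 3 WT mice that lack it (mice 3, 4 and 6), all at 3 months by the study's methods. Knock-in mice carry the repeat in their own huntingtin gene and have no transgene. The Q150 set holds 5 WT mice with 7 glutamines on both alleles (mice 1 to 5), 4 heterozygotes (HET, 150Q/7Q) and 4 homozygotes (HOMO, 150Q/150Q) at 7 months. The Q175 set holds 5 WT mice (mice 6 to 10), 4 HET (175Q/7Q) and 3 HOMO (175Q/175Q) at 18 months, with mice numbered here in the order of deposition. R6/2 mice make only a fragment of the mutant protein, and the models also differ in age and in strain background (B6CBA, B6.129P2 and B6J.129S1), so model, age and strain cannot be told apart. Each library is of cortex tissue with all its cell types.

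A cassette exon is an internal exon that the spliceosome can join to its neighbours or leave out, and whether it is kept is set by the strength of its splice sites and by RNA-binding proteins on the exon and on the flanking introns. Brain uses many such exons, above all in genes of synapses, channels and the cytoskeleton, where a short insert can change a binding surface or a signalling tail. An exon whose length is a whole number of codons adds or removes amino acids without shifting the reading frame, while any other length shifts it.

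The positions in the files did not match GRCm38, so the exons were found within their gene in that build by the length of the interval between the flanking exons. That length had to match the listed span exactly. The sequences below are shown because the results turn on these exons. The first 5 moved the same way in all 3 models. Among the other 5, the change of Kcnt1 and G3bp2 differed between models, and Magi1 had the largest rise in R6/2. Arpp21 and Grin1 passed the test in Q150 HET mice. Capitals mark the exon, lower-case letters are the last 12 bases of the intron before it and the first 8 of the intron after it, and each is written 5′ to 3′ on the strand of its gene.
Dlg3 (listed as mKIAA1232), chrX:100771307-100771360, plus strand, 54 bases: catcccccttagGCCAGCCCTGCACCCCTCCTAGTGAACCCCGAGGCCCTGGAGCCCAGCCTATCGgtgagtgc.
Cbs, chr17:31614529-31614570, minus strand, 42 bases: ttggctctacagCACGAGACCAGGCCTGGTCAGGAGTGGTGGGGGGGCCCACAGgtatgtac.
Sorbs2, the 45-base exon, chr8:45770546-45770590, plus strand, 45 bases: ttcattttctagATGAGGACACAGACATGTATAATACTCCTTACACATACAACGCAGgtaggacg.
Ktn1, chr14:47716874-47716960, plus strand, 87 bases: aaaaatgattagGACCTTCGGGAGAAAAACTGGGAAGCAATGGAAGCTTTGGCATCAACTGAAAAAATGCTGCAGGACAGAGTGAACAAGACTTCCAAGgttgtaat.
Angel2, chr1:190942121-190942247, plus strand, 127 bases: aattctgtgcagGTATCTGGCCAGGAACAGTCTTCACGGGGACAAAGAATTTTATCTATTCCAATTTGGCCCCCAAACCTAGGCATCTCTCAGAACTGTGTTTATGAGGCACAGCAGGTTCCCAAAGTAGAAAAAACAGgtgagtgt.
Arpp21, the 105-base exon, chr9:112126435-112126539, minus strand, 105 bases: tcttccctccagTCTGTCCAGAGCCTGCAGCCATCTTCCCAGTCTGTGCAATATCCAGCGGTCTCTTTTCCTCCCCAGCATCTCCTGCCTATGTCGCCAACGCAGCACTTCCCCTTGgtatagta.
Magi1, chr6:93680789-93680877, minus strand, 89 bases: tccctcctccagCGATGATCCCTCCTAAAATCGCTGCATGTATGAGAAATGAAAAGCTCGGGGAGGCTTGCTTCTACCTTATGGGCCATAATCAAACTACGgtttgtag.
Kcnt1, chr2:25882196-25882237, plus strand, 42 bases: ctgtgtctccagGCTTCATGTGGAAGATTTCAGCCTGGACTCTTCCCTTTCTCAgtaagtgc.
Grin1, chr2:25294438-25294548, minus strand, 111 bases: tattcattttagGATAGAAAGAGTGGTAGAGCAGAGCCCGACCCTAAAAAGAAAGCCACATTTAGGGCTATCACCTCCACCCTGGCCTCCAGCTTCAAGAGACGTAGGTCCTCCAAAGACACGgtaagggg.
G3bp2, chr5:92063337-92063435, minus strand, 99 bases: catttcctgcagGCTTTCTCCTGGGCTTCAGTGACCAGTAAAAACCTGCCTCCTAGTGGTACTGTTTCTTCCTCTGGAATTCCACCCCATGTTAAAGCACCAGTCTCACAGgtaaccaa.

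All 10 lie within the coding sequence, and all but those of Angel2 and Magi1 are a whole number of codons long. The Grin1 exon encodes the C1 cassette in the cytoplasmic tail of the NMDA receptor's obligatory subunit. Of the 290 members, 224 matched a single annotated exon, 46 matched several by the interval between flanking exons, 9 matched none and the gene of 11 was not found. Of the 224, 223 are flanked by AG before and GT or GC after the exon, 171 (76.3%) are fully coding, 21 partly coding and 32 noncoding, against 75.7% fully coding among the 1520 cassette events of the series that matched a single exon. Whole codons made up 152 lengths (67.9%, against 65.5% of those 1520), and the median length was 87 bases, with a range of 21 to 2121 (median of the 1520, 90 bases). Microexons of 27 bases or less were 11 of the 224 (4.91%, against 4.67%), and the introns before and after the members had median lengths of 2094 and 1951 bases (2334.5 and 2269).

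A pair of short motifs was counted on the transcribed strand only. The letters TGTGT, part of the TG-repeat bound by TDP-43, occur in the last 250 intron bases before 44.6% of the 224 exons, in the first 250 intron bases after 46.4% and inside 9.38%, where the 1520 cassette exons had 45.3% before, 45% after and 10.3% inside. The letters TGACT, 1 form of the sequence that can carry m6A, occur before 35.3%, after 28.6% and inside 8.48%, against 30.1%, 26.6% and 11.2%. Among the matched exons tested in R6/2, TGTGT stood before 50.9% of 53 that passed with higher exclusion, 46.7% of 15 with lower exclusion and 41.5% of 142 that did not pass. In Q150 HOMO the shares were 49.0% of 51 higher, 37.5% of 8 lower and 44.2% of 154 not called, and in Q175 HOMO 30.8% of 13 higher, 25% of 4 lower and 45.5% of 202 not called. After the same exons, in the order higher, lower and not called, TGTGT stood in 49.1, 40 and 45.1% in R6/2, 51.0, 12.5 and 47.4% in Q150 HOMO (1 of 8 lower) and 46.2, 50 and 46.0% in Q175 HOMO. These shares are a description of the sequence and say nothing of binding.

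Depth sets how small a shift can be seen in 1 exon. Short plus long counts per mouse averaged 332 for the median member in the R6/2 files, 379 in the Q150 files and 364 in the Q175 files, and ran from 21.8 to 18406, from 22.2 to 23188 and from 23.3 to 25937. Members with a mean below 50 counts numbered 28, 24 and 35. The members nearest the limits of the rule were Pxmp3 at 30.2% and Rpn2 at 69.7% WT exclusion, with Uap1 at 30.0% and Mfge8 at 70.7% just outside, and for the span Angel2 at 1534 bp and Atp2b3 at 14998 bp, with Mark2 at 1470 just below the lower limit. A pair of member events hold identical counts, so 290 members are 289 separate measurements. A junction count is shared with another event of the gene by 12 members (among them 2 of Aifm1, 2 of Sorbs2, and U2af1, Mdmx, Rbfox2, 2310005N01Rik, R3hdm2 9354 and Akap13), and those ratios are not independent of their partner's.

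R6/2 mice had 2171709 to 4337557 counts in total. Q150 mice had 2970207 to 5219877 and Q175 mice 3351064 to 5256516. Knock-in mice carry low or high mouse numbers, which split the Q150 WT, HET and HOMO mice 3 and 2, 3 and 1, and 2 and 2, whereas all 4 Q175 HET mice have low numbers and all 3 Q175 HOMO mice high ones. In R6/2 the numbers coincide with the genotype and cannot be told apart from it. Of 14 neuronal marker genes, 6 had an event, among them Camk2b, Dlg4, Gria2, Grin1 and Syt1, and their summed counts were scaled to 1e6 total counts. The sums were 30241 to 34791 in R6/2 HD against 37650 to 41508 in WT mice. They were 33853 to 38643 in Q150 HOMO and 33465 to 41769 in Q150 HET against 38669 to 46083 in WT mice. In Q175 they overlapped, with 36335 to 41976 in Q175 HOMO against 34742 to 42879. No event was listed for the marker genes of astrocytes, microglia or neighbouring striatum, 2 to 4 of 7 oligodendrocyte markers had events and their sums overlapped between WT and mutant mice, and of the endothelial markers Pecam1 alone had one. The Q150 means were 42237 in WT, 37274 in HET and 36067 in HOMO mice. The lower neuronal marker sums move with the R6/2, Q150 HET and Q150 HOMO results below, and their part in those results was not tested; in such bulk tissue fewer cells of a type and less RNA per cell cannot be told apart.

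Averaged over the members, exclusion was higher in the mutant mice of R6/2 and Q150 and differed little in Q175. The R6/2 WT mice had a mean of 50.2% ± 0.423 (SD, n = 3 mice, 267 events) and the HD mice 52.9% ± 0.769 (n = 3), a difference of 2.65 percentage points, and all 3 HD mice lay above every WT mouse. In Q150 the means were 48.9% ± 0.434 in WT (n = 5, 273 events), 50.8% ± 0.197 in HET (n = 4) and 52.2% ± 0.900 in HOMO mice (n = 4), with all 4 HET and all 4 HOMO mice above every WT mouse. The HET difference was 1.92 points (2.15 among low and 1.56 among high mouse numbers) and the HOMO difference 3.36 points (4.33 and 2.28), and HOMO mice lay 1.45 points above HET mice (2.19 and 0.728). From summed counts HOMO mice lay 1.69 points above HET mice among low and 1.89 among high numbers, and over members with a WT exclusion of 40 to 60% these differences were 2.08 and -0.429 points. There is 1 HET mouse with a high number. In Q175 the means were 49.9% ± 0.753 in WT (n = 5, 283 events), 50.2% ± 0.902 in HET (n = 4) and 50.5% ± 0.387 in HOMO mice (n = 3). The differences of 0.270 and 0.561 points were within the spread between mice, and 1 of 4 HET mice and 0 of 3 HOMO mice exceeded every WT mouse. Among members with a WT exclusion of 40 to 60% the Q175 HOMO difference was 1.39 points with 3 of 3 HOMO mice above every WT mouse, and from summed counts it was 1.03 points with 1 of 3. The same differences over all events of the files were 1.73 points in R6/2, 0.936 and 1.82 points in Q150 HET and HOMO, and 0.274 and 0.640 points in Q175. These means are descriptions, since the WT mice chose the members.

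**Figure D1:**
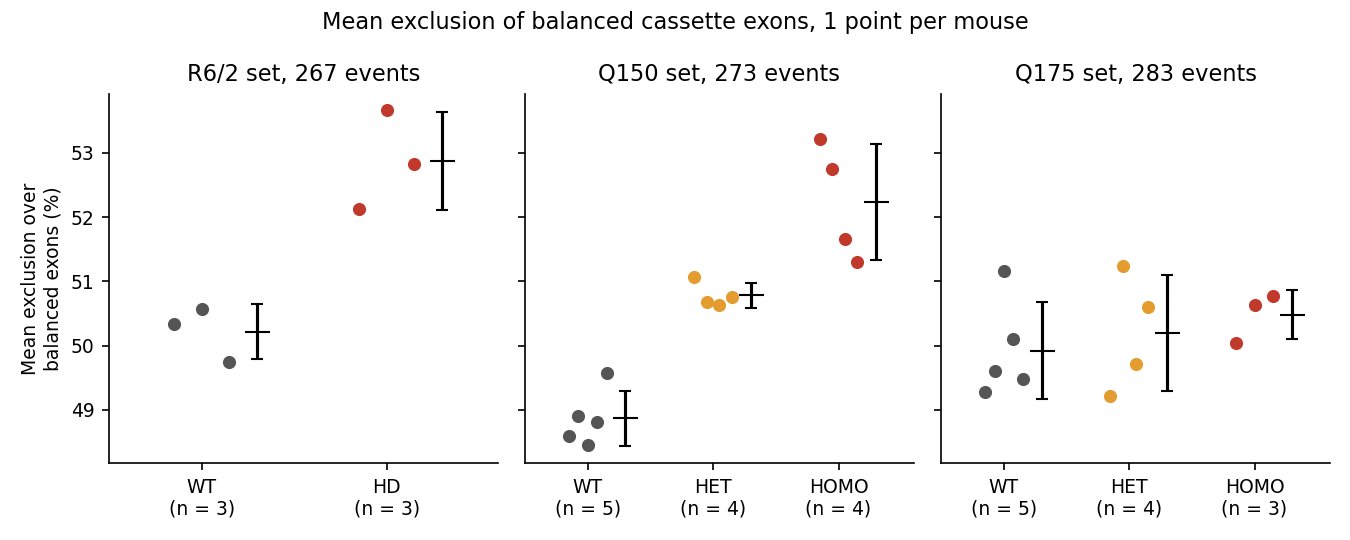
Mean exclusion over the members in each mouse (percent, y axis from 48 to 54 and not from 0), by genotype in the R6/2 (267 events), Q150 (273) and Q175 (283) sets; points are mice and bars the group mean ± SD. All R6/2 HD, Q150 HET and Q150 HOMO mice lie above every WT mouse of their set, while the Q175 groups overlap.

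The plot of mean exclusion by mouse shows the shift of the whole group, which is small beside the changes of single exons, because members moved both ways. The median member changed by 6.94 percentage points in either direction in R6/2, against 1.90 points for mostly included and 2.01 for mostly skipped exons of the same span, and by 5.05 points in Q150 HOMO (1.49 and 1.53) and 3.49 points in Q175 HOMO (0.888 and 0.905). The same log2 change moves exclusion by the most points near even use, so these sizes in points follow from the choice of members. On the log2 scale the median change in either direction was 0.42 for members, 0.48 for mostly included and 0.40 for mostly skipped exons in R6/2. It was 0.31, 0.39 and 0.31 in Q150 HOMO and 0.22, 0.23 and 0.21 in Q175 HOMO.

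R6/2 HD mice skipped the exon more often in most members that passed, and the largest rises were in a junction scaffold, a splicing factor and a spectrin. Exclusion passed the test in 85 of 267 members (31.8%), 64 higher (24.0%) and 21 lower, where 28.6% of all 1743 events passed and 21.1% passed higher. Mice of the groups did not overlap in 128 members (47.9%, against 41.5% of all events). The median event of the files itself lay 0.18 higher on the log2 scale in HD mice (0.19 in Q150 HOMO and 0.07 in Q175 HOMO). When each mouse was centred on its median event 88 members passed, 49 of them higher. The higher share fell from 75.3 to 55.7% (16.4% of all events passed higher then). Without centring 70 of the 88 had also passed. The test was limma on log2 of short over long across all events of the files, with ± the standard error (SE) of the log2 change and p adjusted by Benjamini-Hochberg over all events, and a member is said to have passed below 0.05. The WT mice of the test had also chosen the members, and among 284 exons chosen from the knock-in WT mice instead 92 passed, 70 of them higher.

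Magi1 encodes a scaffold of cell junctions. Its 89-base exon was skipped at 36.2, 39.5 and 47.4% in WT and 78.7, 81.4 and 77.4% in HD mice. No HD mouse came near a WT mouse, and the log2 change was 2.42 ± 0.34 (limma adjusted p = 0.000221). Rbfox2 is itself a regulator of neuronal splicing, and its exon was skipped at 56.5, 55.6 and 52.8% in WT and 81.6, 87.0 and 88.1% in HD mice. Rbfox2 rose by 2.22 ± 0.42 on the log2 scale in R6/2 HD mice (limma adjusted p = 0.00162). The groups were far apart, although only 23 to 46 counts per mouse covered the event and its short junction is shared with another event of the gene. Spna2 (now Sptan1) encodes the alpha chain of non-erythroid spectrin, the membrane skeleton of neurons. Exclusion was 51.0, 49.4 and 49.4% in WT and 77.7, 79.0 and 84.1% in HD mice. Spna2 rose by 2.03 ± 0.21 on the log2 scale in R6/2 HD mice (limma adjusted p = 2.78e-05). Srpx2, a secreted protein known for promoting synapse formation, had exclusion of 63.4, 58.2 and 52.6% in WT and 80.0, 83.0 and 81.4% in HD mice. Srpx2 rose by 1.65 ± 0.30 on the log2 scale in R6/2 HD mice (limma adjusted p = 0.00139). Tatdn1, a predicted nuclease, went from 47.0, 51.5 and 51.1% to 75.4, 77.0 and 80.6%. Tatdn1 rose by 1.80 ± 0.24 on the log2 scale in R6/2 HD mice (limma adjusted p = 0.000148). Mphosph9, a centriole protein, went from 31.9, 37.1 and 45.4% to 66.4, 73.6 and 64.1%. Mphosph9 rose by 1.79 ± 0.31 on the log2 scale in R6/2 HD mice (limma adjusted p = 0.000989). Ica1, a protein of secretory vesicles, had exclusion of 25, 50 and 41.5% in WT and 69.8, 78.5 and 63.2% in HD mice (log2 change 1.93 ± 0.47, limma adjusted p = 0.00877), with 20 to 65 counts per mouse. In each of these the lowest HD mouse lay above the highest WT mouse.

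Fewer exons were kept more often by HD mice. BC068281 was skipped at 57.7, 58.3 and 61.98% in WT mice and at 12.7, 17.4 and 41.8% in HD mice, so that all HD mice were lower but differed widely among themselves. BC068281 fell by 2.38 ± 0.42 on the log2 scale in R6/2 HD mice (limma adjusted p = 0.00115). Inf2, a formin that remodels actin and is listed as 2610204M08Rik, went from 38.5, 36.4 and 37.6% to 13.7, 11.8 and 18.2% (log2 change -1.84 ± 0.17, limma adjusted p = 1.34e-05), and its mice were closely grouped. Ptpro, a receptor tyrosine phosphatase, fell from 25.6, 24.2 and 42.3% to 7.32, 12.5 and 9.63%. Ptpro fell by 2.01 ± 0.44 on the log2 scale in R6/2 HD mice (limma adjusted p = 0.00492). Exclusion of Ccar1, a transcriptional coactivator, fell from 60.4, 72.4 and 54.2% to 27.1, 38.2 and 32.4%. Ccar1 fell by 1.79 ± 0.32 on the log2 scale in R6/2 HD mice (limma adjusted p = 0.00127). Napor-1 fell from 39.4, 37.3 and 44.6% to 27.4, 23.1 and 22.6% (log2 change -1.08 ± 0.19, limma adjusted p = 0.000989), and its groups did not overlap.

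As over all events, few balanced exons passed in Q150 mice with 1 mutant allele and many in mice with both alleles mutant. Most moved toward more skipping, but not in HOMO mice once each mouse was centred on its median event. In HET mice 10 of 273 members passed (3.66%), all higher, where 3.47% of all 1785 events passed and 3.03% passed higher, and 55 members (20.1%) had an unadjusted p under 0.05, as did 18.1% of all events. With centring 6 passed (2.20%, against 2.24% of all events), 5 of them higher (1.29% of all events passed higher then). In HOMO mice 76 members passed (27.8%), 63 higher (23.1%) and 13 lower, against 23.9% and 19.8% of all events. Groups did not overlap in 57 members (20.9%, against 18.2%). With centring 57 passed (20.9%, against 18.3% of all events), 28 of them higher. The higher share thus fell from 82.9 to 49.1% (9.52% of all events passed higher), and 41 of the 57 had passed without centring. With the members chosen from the WT mice of the other sets, 12 of 286 passed in HET and 81 of 286 in HOMO mice. The HET count rests on single mice: it was 0 without HET mouse 1, 3 without HET mouse 2 and 6 without WT mouse 4 or HET mouse 3, and it was 24 with a block for low and high mouse numbers and 27 of 269 against all 10 knock-in WT mice. Of all events 0.224% passed without HET mouse 1, 1.46% without HET mouse 2, 1.57% without WT mouse 4 and 2.02% without HET mouse 3. With the block 8.79% of members and 7.68% of all events passed, and against all 10 WT mice 10.04% and 8.26%. HET and HOMO mice were compared with the same 5 WT mice, so their values are set side by side below and no overlap between them is counted.

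Cbs, cystathionine beta-synthase of the transsulphuration pathway, had the largest change in HOMO mice among the called members whose mice did not overlap. Its 42-base exon was skipped at 40.7, 44.0, 43.4, 41.7 and 42.8% in WT, 57.1, 48.7, 53.4 and 58.0% in HET and 71.2, 65.7, 67.0 and 67.3% in HOMO mice. The 3 genotypes did not overlap, with a log2 change of 0.68 ± 0.15 in HET (limma adjusted p = 0.0151) and of 1.51 ± 0.15 in HOMO mice (limma adjusted p = 2.95e-07). Clk4, a kinase of splicing factors of the SR family, had exclusion of 47.8, 41.5, 36.1, 33.1 and 39.8% in WT and 70.3, 59.1, 51.4 and 67.7% in HOMO mice. Clk4 rose by 1.33 ± 0.25 on the log2 scale in Q150 HOMO mice (limma adjusted p = 0.000458). Abat, the transaminase that breaks down GABA, had 35.7, 33.6, 42.1, 28.5 and 28.9% in WT and 60.4, 61.1, 46.2 and 45.05% in HOMO mice. Abat rose by 1.17 ± 0.24 on the log2 scale in Q150 HOMO mice (limma adjusted p = 0.00138). G3bp2, a core protein of stress granules, went from 64.8, 63.5, 64.8, 70.7 and 71.0% in WT over 71.1, 70.4, 70.2 and 72.7% in HET to 80.1, 82.0, 82.6 and 79.2% in HOMO mice. G3bp2 rose by 1.07 ± 0.12 on the log2 scale in Q150 HOMO mice (limma adjusted p = 6.90e-07). Every HOMO mouse exceeded every WT mouse in these 3 genes, whereas the HET mice of G3bp2 lay from 70.2 to 72.7%, around the highest WT mouse. Lass5 (now Cers5), a ceramide synthase, had 62.2, 52.9, 61.2, 61.4 and 69.1% in WT and 70.3, 78.5, 80.5 and 76.1% in HOMO mice. Lass5 rose by 1.03 ± 0.21 on the log2 scale in Q150 HOMO mice (limma adjusted p = 0.00134). The Magi1 exon that moved most in R6/2 was skipped at 33.3, 30.1, 27.96, 39.7 and 39.4% in WT, 45.7, 35.8, 46.5 and 39.1% in HET and 47.5, 54.8, 58.9 and 53.6% in HOMO mice. Magi1 rose by 1.16 ± 0.26 on the log2 scale in Q150 HOMO mice (limma adjusted p = 0.00255). Mphosph9 was skipped at 40, 49.1, 44.2, 48.1 and 43.0%, 61.2, 58.0, 58.3 and 57.1% and 66.4, 63.1, 60.8 and 57.3% in the same genotypes. Mphosph9 rose by 0.99 ± 0.20 on the log2 scale in Q150 HOMO mice (limma adjusted p = 0.000983). Cbs lost its call in Q150 HET without HET mouse 1 (adjusted p = 0.0696). Mphosph9 lost its call in Q150 HET without any 1 of WT mice 1, 3 and 5 and HET mice 1, 2 and 3, with an adjusted p from 0.0516 to 0.0864. Mphosph9 also missed the threshold there with each mouse centred on its median event (adjusted p = 0.0599).

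The 10 members that passed in Q150 HET mice were Sorbs2 4678, Cbs, Trp53i11, Arpp21 4549, Ktn1, Grin1, Mphosph9, Shank1, Xpa and Ppp3ca, the last pair (a DNA repair protein and the catalytic subunit of calcineurin) named only to complete the count after their values were seen. The 105-base exon of Arpp21, a neuronal RNA-binding phosphoprotein, was skipped at 44.8, 47.1, 50.4, 39.3 and 40.8% in WT, 58.0, 60.8, 53.7 and 62.2% in HET and 63.7, 63.9, 63.9 and 53.4% in HOMO mice. HET and HOMO mice overlapped each other and lay above every WT mouse, with log2 changes of 0.83 ± 0.18 (limma adjusted p = 0.0162) and 0.99 ± 0.18 (limma adjusted p = 0.000489). Grin1 exclusion, that is loss of the C1 cassette, was 30.8, 30.3, 32.8, 28.6 and 34.2% in WT, 38.8, 38.9, 37.0 and 39.6% in HET and 42.6, 42.7, 41.2 and 38.9% in HOMO mice. Its HET log2 change was 0.46 ± 0.11 (limma adjusted p = 0.0206) and its HOMO change 0.63 ± 0.11 (limma adjusted p = 0.000234). Shank1, a scaffold of the postsynaptic density, had 63.1, 57.4, 57.8, 63.0 and 63.9% in WT, 69.0, 68.4, 65.6 and 65.5% in HET and 69.2, 70.3, 73.9 and 68.7% in HOMO mice. Shank1 rose by 0.38 ± 0.11 on the log2 scale in Q150 HET mice (limma adjusted p = 0.0459). Shank1 rose by 0.61 ± 0.11 on the log2 scale in Q150 HOMO mice (limma adjusted p = 0.000225). No mutant mouse of these 3 genes fell within its WT range. Arpp21 4549 lost its call in Q150 HET without HET mouse 1 (adjusted p = 0.0561) and without HET mouse 2 (adjusted p = 0.0580). Grin1 lost its call in Q150 HET without WT mouse 4 (adjusted p = 0.0572), without HET mouse 1 (adjusted p = 0.0727) and without HET mouse 2 (adjusted p = 0.0631). Grin1 also missed the threshold there with each mouse centred on its median event (adjusted p = 0.0874) and without the variance trend (adjusted p = 0.0765). Shank1 lost its call in Q150 HET without any 1 of WT mice 1, 2, 3 and 4, HET mice 1, 2 and 3 and HOMO mouse 1, with an adjusted p from 0.0506 to 0.163. Shank1 also missed the threshold there with each mouse centred on its median event (adjusted p = 0.187) and without the variance trend (adjusted p = 0.179).

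Fewer members passed in Q175 mice, the oldest, than in the same genotypes of Q150, as did fewer of all events. These counts do not test a difference between the sets. In HET mice 1 of 283 members passed (0.353%, where 0.598% of all 1839 events did), and 40 (14.1%) had an unadjusted p under 0.05, against 10.8% of all events. The member that passed was the 105-base exon of Arpp21, skipped at 37.4, 43.5, 39.05, 36.7 and 40.05% in WT, 44.7, 57.1, 52.6 and 60.9% in HET and 53.1, 50.9 and 56.0% in HOMO mice. All mutant mice exceeded all WT mice, and the log2 changes were 0.85 ± 0.16 in HET (limma adjusted p = 0.00340) and 0.82 ± 0.18 in HOMO mice (limma adjusted p = 0.00247). Arpp21 4549 lost its call in Q175 HET without HET mouse 4 (adjusted p = 0.0664). Arpp21 4549 also missed the threshold there without the variance trend (adjusted p = 0.156). The HET count was 0 without HET mouse 4, 8 without HET mouse 1, 3 without HOMO mouse 1 and 2 without WT mouse 6 or 7, where 0.109, 1.79, 0.761, 0.435 and 0.653% of all events passed. In HOMO mice 22 members passed (7.77%), 17 higher (6.01%) and 5 lower, against 7.07% and 5.60% of all events, and the groups did not overlap in 38 members (13.4%, against 13.8%). With centring 18 passed (6.36%, against 5.82% of all events) and 12 were higher. The higher share thus fell from 77.3 to 66.7% (4.08% of all events passed higher), and 17 of the 18 had passed without centring. Chosen from the WT mice of the other sets, 2 of 278 members passed in HET and 23 of 278 in HOMO mice. The HOMO count was 12 without HOMO mouse 3 and 14 without HOMO mouse 1, 13 with a block for low and high mouse numbers and 6 without the variance trend, where 4.02, 4.02, 4.46 and 2.12% of all events passed.

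Wnk2 is a kinase that controls cation-chloride cotransport, and only the Q175 files list its exon. It had exclusion of 51.1, 55.1, 69.4, 70.0 and 58.1% in WT, 29.0, 51.4, 41.7 and 76.5% in HET and 19.4, 35.0 and 40.7% in HOMO mice (log2 change -1.74 ± 0.51, limma adjusted p = 0.0271 for HOMO), from 17 to 49 counts per mouse. Rbfox2 had 32.7, 63.3, 45.2, 37.1 and 54.2% in WT and 71.8, 68.0 and 82.2% in HOMO mice (log2 change 1.72 ± 0.41, limma adjusted p = 0.00592), again from few counts (33 to 71). Napor-1 was skipped at 45.01, 40.9, 48.1, 46.8 and 39.4% in WT, 38.9, 40.5, 30.5 and 37.9% in HET and 25.3, 33.5 and 31.2% in HOMO mice. Napor-1 fell by 0.88 ± 0.16 on the log2 scale in Q175 HOMO mice (limma adjusted p = 0.000276). Inf2 (2610204M08Rik) had 39.9, 38, 40.4, 41.9 and 48.0% in WT and 23.3, 37.6 and 35.1% in HOMO mice. Inf2 fell by 0.62 ± 0.16 on the log2 scale in Q175 HOMO mice (limma adjusted p = 0.0110). The sodium-activated potassium channel gene Kcnt1 had 32.7, 34.7, 33.6, 32.7 and 36.8% in WT and 38.8, 44.6 and 43.0% in HOMO mice. Kcnt1 rose by 0.49 ± 0.12 on the log2 scale in Q175 HOMO mice (limma adjusted p = 0.00740). In these 5 exons no HOMO mouse lay within the WT range. Wnk2 lost its call in Q175 HOMO without WT mouse 8 (adjusted p = 0.0681), without WT mouse 9 (adjusted p = 0.0790), without HOMO mouse 1 (adjusted p = 0.233) and without HOMO mouse 2 (adjusted p = 0.0578). Wnk2 also missed the threshold there without the variance trend (adjusted p = 0.119) and with a block for low and high mouse numbers (adjusted p = 0.0699). Rbfox2 lost its call in Q175 HOMO without HOMO mouse 3 (adjusted p = 0.0705). Inf2 lost its call in Q175 HOMO without HOMO mouse 1 (adjusted p = 0.296). Inf2 also missed the threshold there against all 10 knock-in WT mice (adjusted p = 0.545) and without the variance trend (adjusted p = 0.200). Kcnt1 lost its call in Q175 HOMO without HOMO mouse 2 (adjusted p = 0.0719). Kcnt1 also missed the threshold there against all 10 knock-in WT mice (adjusted p = 0.288), without the variance trend (adjusted p = 0.104) and with a block for low and high mouse numbers (adjusted p = 0.0716).

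Of 263 members listed in all 3 sets, 10 passed in R6/2 HD, Q150 HOMO and Q175 HOMO mice in the same direction (3.80%), where 4.09% of all 1662 shared events did. Skipping rose in 9 of them, among them mKIAA1232, Cbs, Trp53i11, Sorbs2 4678, Angel2, Sorbs2 4833, Ktn1 and R3hdm2 9354, and fell in Nrxn2. The count was 5 without Q175 HOMO mouse 3 and 2 without the variance trend, and Sorbs2 4678 and 4833 come from 1 gene. The share of all shared events was not taken under these 2 settings. In Q175 HOMO alone 4.02 and 2.12% of all events passed under them, in place of 7.07%.

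Dlg3 (listed as mKIAA1232) encodes SAP102, a scaffold that holds glutamate receptors at synapses. Its 54-base exon was skipped at 61.8, 60.9 and 63.2% in WT and 86.0, 81.5 and 85.7% in HD mice of R6/2. In Q150 it was skipped at 66.9, 67.5, 67.2, 68.1 and 71.1% in WT and 83.8, 82.8, 82.8 and 78.7% in HOMO mice, and in Q175 at 65.3, 64.2, 70.6, 71.7 and 70.5% and 76.3, 76.5 and 82.5%. No mutant mouse overlapped the WT mice, and the log2 changes were 1.74 ± 0.15, 1.10 ± 0.12 and 0.75 ± 0.13 (limma adjusted p = 4.85e-06, 1.32e-06 and 0.000103). The second member of this gene, a 42-base exon listed as Dlg3, named after its values were seen, did not pass in any of the 3 (log2 change -0.13 ± 0.17, -0.29 ± 0.17 and -0.29 ± 0.12). The Cbs exon was skipped at 50.2, 46.5 and 51.2% in WT and 68.7, 70.2 and 68.4% in HD mice of R6/2. In Q175 it was skipped at 39.9, 37.4, 38.04, 36.1 and 45.04% in WT and 51.9, 56.2 and 45.7% in HOMO mice, and groups were apart in both sets. Cbs rose by 1.20 ± 0.18 on the log2 scale in R6/2 HD mice (limma adjusted p = 0.000297). Cbs rose by 0.70 ± 0.16 on the log2 scale in Q175 HOMO mice (limma adjusted p = 0.00379). Trp53i11, a gene induced by p53, had 39.5, 45.1 and 41.2% in WT and 58.6, 61.2 and 63.7% in HD mice of R6/2. Q150 mice had 40.7, 41.7, 38.4, 41.0 and 42.1% in WT and 61.8, 56.2, 58.4 and 51.9% in HOMO mice, against 36.7, 37.7, 36.8, 31.4 and 33.2% and 46.8, 48.7 and 49.6% in Q175. Its log2 changes of 1.12 ± 0.15, 0.95 ± 0.13 and 0.79 ± 0.13 left no overlap between HD or HOMO and WT mice (limma adjusted p = 0.000169, 1.12e-05 and 6.26e-05). Cbs lost its call in Q175 HOMO without HOMO mouse 2 (adjusted p = 0.0633). Cbs also missed the threshold there without the variance trend (adjusted p = 0.0528) and with a block for low and high mouse numbers (adjusted p = 0.0583). Trp53i11 lost its call in Q150 HET without HET mouse 1 (adjusted p = 0.0561) and without HET mouse 2 (adjusted p = 0.0514).

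Neurexin 2, a presynaptic adhesion protein, went the other way. Its exon at splice site 4 was skipped at 29.9, 27.8 and 35.2% in WT and 15.2, 21.3 and 17.3% in HD mice of R6/2. In Q150 it was skipped at 30.7, 33.1, 32.6, 32.1 and 30.5% in WT, 23.8, 31.8, 24.6 and 25.2% in HET and 22.7, 17.2, 26.0 and 28.9% in HOMO mice. In Q175 the values were 33.9, 31.0, 32.2, 34.4 and 31.8%, 26.7, 27.98, 30.9 and 29.0% and 25.9, 28.6 and 23.3% in the same order. HD and HOMO mice kept the insert more often than every WT mouse of their set, with log2 changes of -1.04 ± 0.18, -0.60 ± 0.16 and -0.47 ± 0.11 (limma adjusted p = 0.000858, 0.00785 and 0.00630). The other Nrxn2 member, event 7250, also named after its values were seen, did not pass in any of the 3 (log2 change 0.18 ± 0.13, 0.09 ± 0.12 and -0.01 ± 0.11). Ktn1 encodes kinectin, a membrane anchor for kinesin, and its 87-base exon was covered by 3859 to 7722 counts per mouse in R6/2. It was skipped at 61.1, 59.7 and 62.2% in WT and 71.9, 67.9 and 66.3% in HD mice of R6/2. In Q150 the values were 58.5, 59.8, 58.9, 58.3 and 60.4% in WT, 67.1, 66.7, 66.5 and 62.1% in HET and 69.5, 73.2, 70.9 and 69.7% in HOMO mice. Q175 mice had 61.9, 57.6, 61.8, 58.4 and 62.2%, 59.4, 61.9, 62.6 and 63.0% and 64.7, 65.7 and 67.9%. No HD or HOMO mouse lay within the WT range of its set (log2 change 0.49 ± 0.11, 0.75 ± 0.09 and 0.35 ± 0.09; limma adjusted p = 0.00575, 5.08e-06 and 0.0102). R3hdm2, a protein with an R3H domain for binding nucleic acid, had the deepest of these events, 11448 to 23321 counts per mouse in R6/2. Its exclusion was 42.9, 47.5 and 48.3% in WT and 55.8, 55.8 and 57.6% in HD mice of R6/2, 45.01, 45.9, 45.7, 46.2 and 46.6% and 54.7, 53.8, 54.4 and 50.4% in Q150, and 45.9, 45.2, 43.0, 42.2 and 42.7% and 48.4, 49.0 and 52.0% in Q175. The changes were small and separated all mice (log2 change 0.59 ± 0.09, 0.43 ± 0.08 and 0.35 ± 0.07; limma adjusted p = 0.000568, 0.000257 and 0.00202). Nrxn2 lost its call in Q175 HOMO without HOMO mouse 3 (adjusted p = 0.0843). Nrxn2 also missed the threshold there without the variance trend (adjusted p = 0.0644). Ktn1 lost its call in R6/2 with each mouse centred on its median event (adjusted p = 0.0551) and without the variance trend (adjusted p = 0.0788). Ktn1 lost its call in Q150 HET without WT mouse 4 (adjusted p = 0.0503), without HET mouse 1 (adjusted p = 0.0764), without HET mouse 2 (adjusted p = 0.0631) and without HET mouse 3 (adjusted p = 0.0552). Ktn1 also missed the threshold there with each mouse centred on its median event (adjusted p = 0.0964) and without the variance trend (adjusted p = 0.116). Ktn1 lost its call in Q175 HOMO without HOMO mouse 3 (adjusted p = 0.0903). Ktn1 also missed the threshold there without the variance trend (adjusted p = 0.132) and with a block for low and high mouse numbers (adjusted p = 0.0590). R3hdm2 9354 lost its call in Q175 HOMO without the variance trend (adjusted p = 0.105).

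Sorbs2 encodes an adaptor that ties actin to cell adhesions and signalling proteins, and Angel2 belongs to a family of nucleases and phosphatases. The 45-base exon of Sorbs2 (event 4678) was skipped at 58.1, 52.9 and 53.8% in WT and 76.3, 75.5 and 73.2% in HD mice of R6/2. In Q150 the values were 55.1, 56.2, 52.5, 53.6 and 53.6% in WT and 72.2, 65.3, 71.9 and 68.5% in HOMO mice, and in Q175 58.4, 53.9, 63.6, 51.6 and 59.0% and 63.2, 65.4 and 66.2%. Groups were apart in the first 2 sets, and in Q175 the lowest HOMO mouse lay below the highest WT mouse (log2 change 1.29 ± 0.17, 0.95 ± 0.14 and 0.46 ± 0.14; limma adjusted p = 0.000149, 5.69e-05 and 0.0434). Sorbs2 event 4833 had log2 changes of 0.66 ± 0.12, 0.64 ± 0.15 and 0.51 ± 0.13 (limma adjusted p = 0.00158, 0.00290 and 0.00950), and in the knock-in sets 1 mouse of each genotype overlapped the other. Angel2 went from 43.0, 41.5 and 29.7% to 54.9, 52.7 and 55.7% in R6/2 without overlap, with log2 changes of 0.97 ± 0.22, 0.57 ± 0.16 and 0.71 ± 0.17 (limma adjusted p = 0.00604, 0.0128 and 0.00661). Sorbs2 4678 lost its call in Q150 HET without HET mouse 1 (adjusted p = 0.0616). Sorbs2 4678 lost its call in Q175 HOMO without any 1 of WT mice 6, 7 and 9 and HOMO mice 1, 2 and 3, with an adjusted p from 0.0531 to 0.154. Sorbs2 4678 also missed the threshold there with each mouse centred on its median event (adjusted p = 0.0820), without the variance trend (adjusted p = 0.168) and with a block for low and high mouse numbers (adjusted p = 0.0523). Sorbs2 4833 lost its call in Q175 HOMO without HOMO mouse 1 (adjusted p = 0.0961) and without HOMO mouse 3 (adjusted p = 0.0595). Sorbs2 4833 also missed the threshold there against all 10 knock-in WT mice (adjusted p = 0.0684), without the variance trend (adjusted p = 0.160) and with a block for low and high mouse numbers (adjusted p = 0.0523). Angel2 lost its call in Q150 HOMO without HOMO mouse 1 (adjusted p = 0.0509). Angel2 also missed the threshold there with each mouse centred on its median event (adjusted p = 0.0994). Angel2 lost its call in Q175 HOMO without the variance trend (adjusted p = 0.0586).

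**Figure D2:**
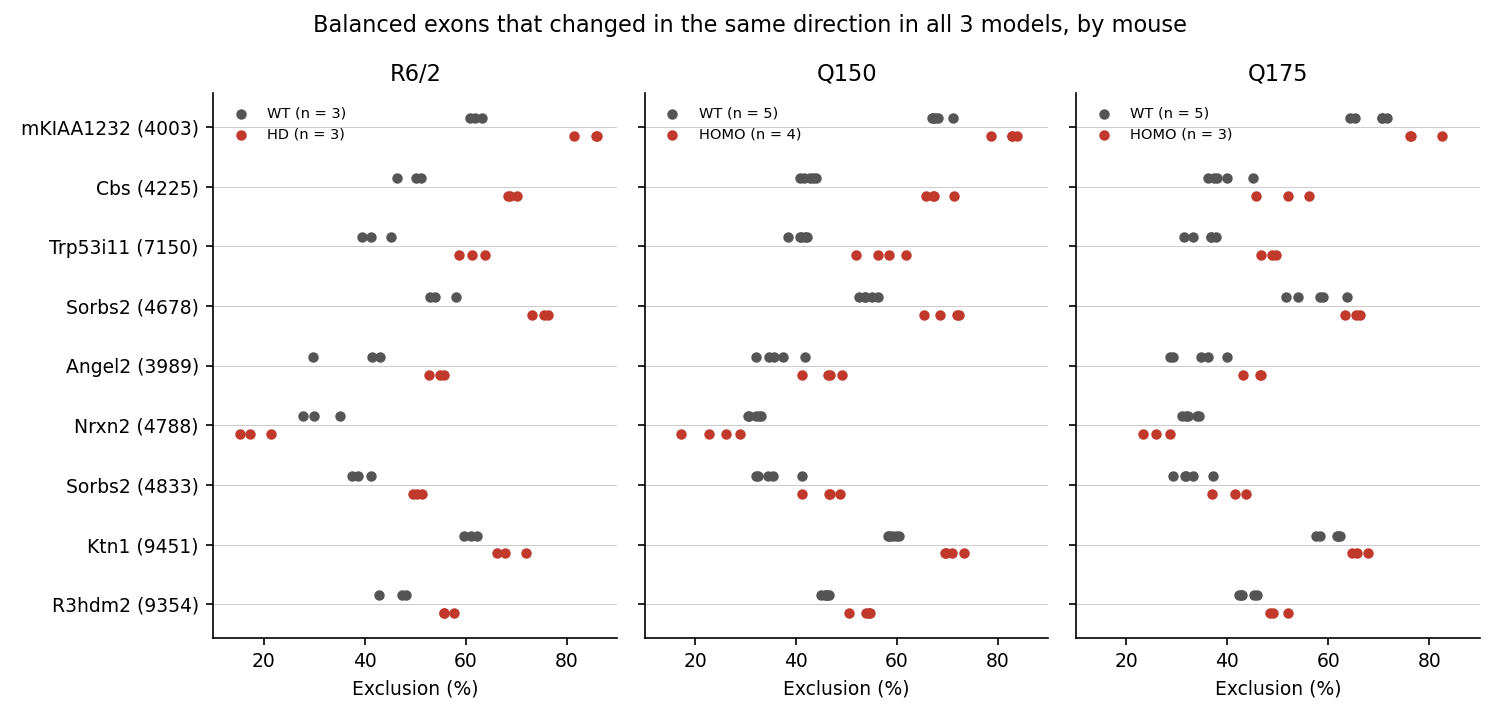
Exclusion (percent, x axis) in each mouse of R6/2 (left), Q150 (middle) and Q175 (right) for 9 of the 10 members that passed in the same direction in R6/2 HD, Q150 HOMO and Q175 HOMO mice, 1 row per exon (event number in brackets) and 1 point per mouse, WT mice grey and HD or HOMO mice red. Skipping is higher in the red points in 8 rows and lower in the Nrxn2 row, and groups overlap for Angel2 and Sorbs2 4833 in Q150 and for both Sorbs2 exons in Q175.

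The models were then compared directly, since passing in 1 model and not in another does not show a difference. R6/2 and Q150 HOMO mice shared 37 called members, all in the same direction, which is 43.5% of the 85 called in R6/2 and 49.3% of the 75 called in Q150 HOMO among members tested in both. They were 14% of the 264 members tested in both, where 14.3% of all events were called in both in the same direction. R6/2 and Q175 HOMO mice shared 17, of which 16 moved the same way, 20% of 85 and 81.0% of 21, and Q150 and Q175 HOMO mice shared 13, all the same way, 17.3% of 75 and 61.9% of 21. Calls in the same direction were 6.08% of 263 and 4.83% of 269 members, against 5.78% and 4.68% of all events. The change itself differed between R6/2 and Q150 HOMO in 19 of 264 members (7.20%), 7 with the higher change in R6/2 (2.65%), where 6.96% and 3.69% of all events did, and with centring in 21 members, 13 of them higher in R6/2 (61.9% in place of 36.8%). Between R6/2 and Q175 HOMO it differed in 37 of 263 (14.1%), 29 higher in R6/2 (11.03%), against 13.0% and 10.2% of all events, with centring 32 and 21 (65.6% in place of 78.4%). Between Q150 and Q175 HOMO it differed in 12 of 269 (4.46%), 11 higher in Q150 (4.09%), against 3.41% and 2.66%, with centring in 4, of which 2 were higher in Q150 (91.7% without centring). Chosen without the WT mice of the sets compared, 21 of 305, 43 of 302 and 14 of 295 members differed.

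Rbfox2 skipping rose by 2.22 ± 0.42 on the log2 scale in R6/2 and changed by 0.14 ± 0.31 in Q150 HOMO mice, where WT mice had 48.4, 53.3, 58.2, 51.5 and 56.4% and HOMO mice 39.5, 60, 62.7 and 61.2%. The Rbfox2 changes of R6/2 and Q150 HOMO mice differed by 2.08 ± 0.49 on the log2 scale (limma adjusted p = 0.00978). Q150 HOMO mice overlapped their WT mice there while R6/2 mice did not. Ccar1, lower in R6/2, had 39.8, 61.0, 49.8, 47.9 and 58.8% in WT and 57.4, 49.8, 61.9 and 48.8% in HOMO mice of Q150. The Ccar1 changes of R6/2 and Q150 HOMO mice differed by -1.97 ± 0.43 on the log2 scale (limma adjusted p = 0.00537). BC068281, lower in R6/2, had 54.8, 62.5, 47.2 and 53.0% in Q150 HOMO and 67.3, 63.8 and 71.3% in Q175 HOMO mice. Its R6/2 change differed from that of Q150 by -1.99 ± 0.45 (limma adjusted p = 0.00695) and from that of Q175 by -2.52 ± 0.40 (limma adjusted p = 4.62e-05). Spna2 rose by 0.82 ± 0.25 on the log2 scale in Q150 HOMO mice (limma adjusted p = 0.0212). In Q175 its exclusion was 48.6, 40.7, 44.2, 43.0 and 44.9% in WT and 42.7, 46.8 and 46.4% in HOMO mice. The Spna2 changes of R6/2 and Q175 HOMO mice differed by 1.98 ± 0.23 on the log2 scale (limma adjusted p = 4.98e-07). The 95% interval of the Q175 HOMO change of Spna2, -0.23 to 0.34, lay far below the R6/2 change. Atp2b3, a calcium pump of the plasma membrane, was skipped at 46.2, 41.2 and 48.2% in WT and 17.9, 23.1 and 26.0% in HD mice. Atp2b3 fell by 1.53 ± 0.22 on the log2 scale in R6/2 HD mice (limma adjusted p = 0.000314). In Q150 HOMO mice it was 38.8, 29.3, 44.1 and 35.8%. The Atp2b3 changes of R6/2 and Q150 HOMO mice differed by -1.51 ± 0.31 on the log2 scale (limma adjusted p = 0.00303). Taf1b, a factor of RNA polymerase I, rose from 40.8, 39.2 and 40.02% to 64.6, 66.5 and 56.0% in R6/2. Taf1b rose by 1.32 ± 0.17 on the log2 scale in R6/2 HD mice (limma adjusted p = 9.92e-05). Kcnt1 rose from 37.7, 40.1 and 35.8% to 65.6, 65.2 and 64.3%. Kcnt1 rose by 1.61 ± 0.13 on the log2 scale in R6/2 HD mice (limma adjusted p = 3.75e-06). Both exceeded their Q150 HOMO changes (differences of 1.15 ± 0.22 and 1.23 ± 0.27, limma adjusted p = 0.00171 and 0.00537). Spna2 lost its call in Q150 HOMO without HOMO mouse 2 (adjusted p = 0.108). Spna2 also missed the threshold there with each mouse centred on its median event (adjusted p = 0.0822) and without the variance trend (adjusted p = 0.0643).

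Tbc1d4, a Rab GTPase-activating protein of glucose transporter traffic, was called in opposite directions. Exclusion was 57.1, 43.7 and 48.0% in WT and 78.8, 64.1 and 67.5% in HD mice of R6/2, 45.6, 53.1, 50.3, 51.6 and 60% and 50, 67.0, 54.8 and 68.4% in WT and HOMO mice of Q150, and 59.9, 63.5, 72.5, 71.5 and 67.2% and 56.9, 57.0 and 47.8% in Q175. It rose in R6/2 (log2 change 1.27 ± 0.35, limma adjusted p = 0.0161) and fell in Q175 HOMO (log2 change -0.80 ± 0.22, limma adjusted p = 0.0182), and the R6/2 and Q175 changes differed by 2.07 ± 0.39 (limma adjusted p = 0.000366). Tbc1d4 lost its call in R6/2 without HD mouse 860 (adjusted p = 0.0643), without WT mouse 4 (adjusted p = 0.0596) and without WT mouse 6 (adjusted p = 0.0562). Tbc1d4 lost its call in Q175 HOMO without WT mouse 8 (adjusted p = 0.0614), without WT mouse 9 (adjusted p = 0.0609) and without HOMO mouse 3 (adjusted p = 0.156). Tbc1d4 also missed the threshold there against all 10 knock-in WT mice (adjusted p = 0.527) and without the variance trend (adjusted p = 0.0884). Between Q150 and Q175 HOMO the largest called differences were those of Tbc1d4 (1.28 ± 0.36, limma adjusted p = 0.0402), Abat (1.26 ± 0.33, limma adjusted p = 0.0312) and Gde5 (1.08 ± 0.23, limma adjusted p = 0.00649). Abat had 44.4, 39.5, 48.5, 43.5 and 39.1% in WT and 37.0, 41.4 and 46.2% in HOMO mice of Q175, which overlap. Gde5 (now Gpcpd1), a glycerophosphocholine phosphodiesterase, had 37.0, 44.6, 39.6, 34.0 and 37.9% in WT and 57.0, 52.0, 46.7 and 54.2% in HOMO mice of Q150. Gde5 rose by 0.81 ± 0.14 on the log2 scale in Q150 HOMO mice (limma adjusted p = 0.000221). In Q175 it had 45.6, 38.6, 51.9, 42.6 and 43.4% in WT and 33.7, 37.9 and 48.6% in HOMO mice. Gde5 had a log2 change of -0.26 ± 0.15 in Q175 HOMO mice, which did not pass (limma adjusted p = 0.336). G3bp2 also moved less in Q175, with 67.0, 64.1, 64.9, 62.2 and 64.2% in WT and 70.9, 66.6 and 70.0% in HOMO mice. G3bp2 had a log2 change of 0.31 ± 0.10 in Q175 HOMO mice, which did not pass (limma adjusted p = 0.0519). The 2 lines differed by 0.76 ± 0.16 on the log2 scale (limma adjusted p = 0.00539). Tbc1d4 lost its call between Q150 and Q175 with each mouse centred on its median event (adjusted p = 0.0837) and without the variance trend (adjusted p = 0.0808). Abat lost its call in R6/2 without HD mouse 860 (adjusted p = 0.0964), without HD mouse 869 (adjusted p = 0.0689), without WT mouse 3 (adjusted p = 0.0610) and without WT mouse 6 (adjusted p = 0.101). Abat also missed the threshold there with each mouse centred on its median event (adjusted p = 0.0601) and without the variance trend (adjusted p = 0.0651). Abat lost its call between Q150 and Q175 with each mouse centred on its median event (adjusted p = 0.0585) and without the variance trend (adjusted p = 0.0707).

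**Figure D3:**
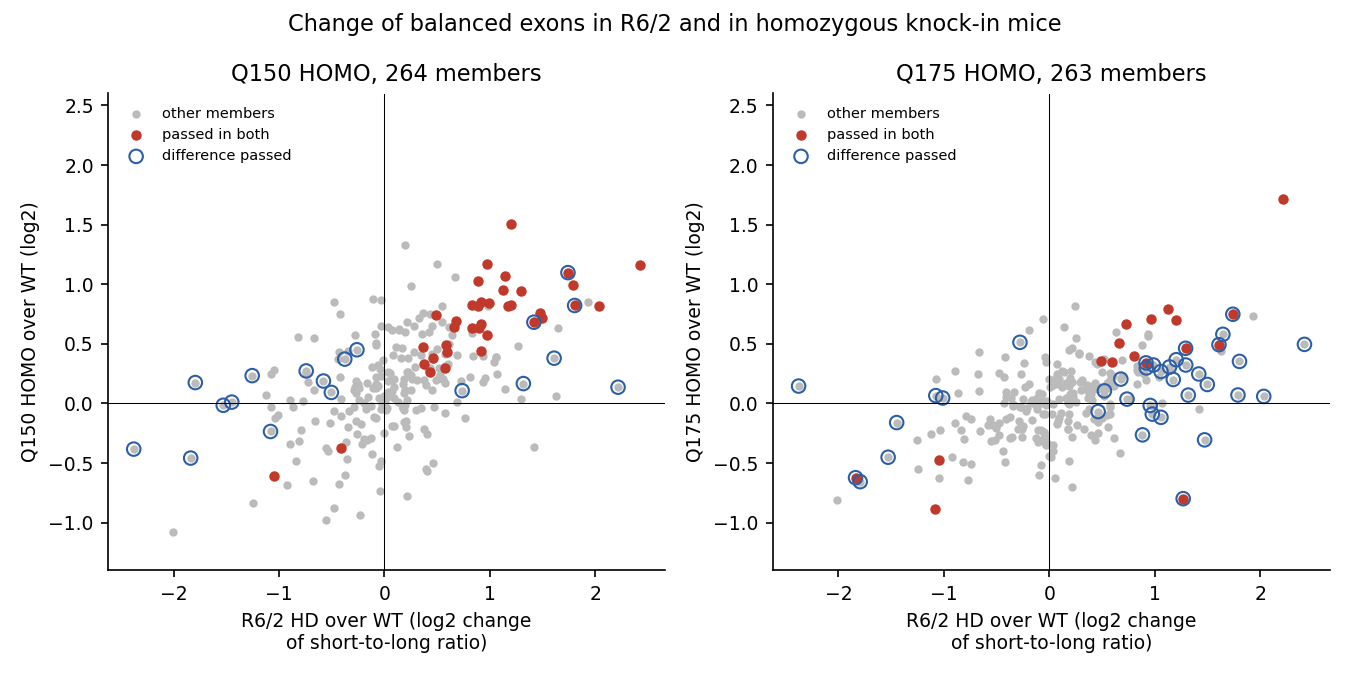
Log2 change of each member in R6/2 HD against WT (x axis) against that in HOMO over WT mice (y axis) of Q150 (left, 264 members) and of Q175 (right, 263 members), 1 point per event. Red points passed in both models and a blue ring marks members whose 2 changes differed with an adjusted p under 0.05 (19 and 37); all red points but Tbc1d4 on the right share their direction.

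The number of mutant alleles was tested by comparing HOMO with HET mice, a contrast that compares no WT mouse. In Q150, 3 of 273 members passed, all higher in HOMO mice (1.10%, where 2.18% of all events passed), and 40 (14.7%) had an unadjusted p under 0.05, against 14.1% of all events. The 3 that passed were Cbs (log2 difference 0.82 ± 0.16, limma adjusted p = 0.00583), G3bp2 (0.79 ± 0.12, limma adjusted p = 0.00117) and Dlg3 listed as mKIAA1232 (0.76 ± 0.13, limma adjusted p = 0.00242). Dlg3 HET mice had 74.1, 75.9, 71.1 and 70.7% and HOMO mice 83.8, 82.8, 82.8 and 78.7%, and none of the 3 exons overlapped between the 2 genotypes. With a block for low and high mouse numbers 12 members passed (4.40%), 11 of them higher, where 4.48% of all events passed, and without HOMO mouse 4 the count was 6 (2.20%, against 2.46%). In Q175, 1 of 283 members passed (0.353%, against 0.816%), and 33 (11.7%) had an unadjusted p under 0.05, against 10.9% of all events. The call was again Dlg3, at 65.3, 64.2, 70.6, 71.7 and 70.5% in WT, 63.8, 66.5, 65.5 and 68.2% in HET and 76.3, 76.5 and 82.5% in HOMO mice (log2 difference 0.92 ± 0.13, limma adjusted p = 3.33e-05). HET mice lay within or below the WT range, and HOMO mice above both. All Q175 HET mice have low and all HOMO mice high numbers, so the 2 genotypes are linked only through the WT mice. Dlg3 lost its call between Q175 HOMO and HET without the variance trend (adjusted p = 0.0996) and with a block for low and high mouse numbers (adjusted p = 0.247). For Arpp21 the HOMO mice did not pass against HET mice in either line, and the 95% interval of the difference was -0.25 to 0.56 in Q150 and -0.41 to 0.35 in Q175.

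**Figure D4:**
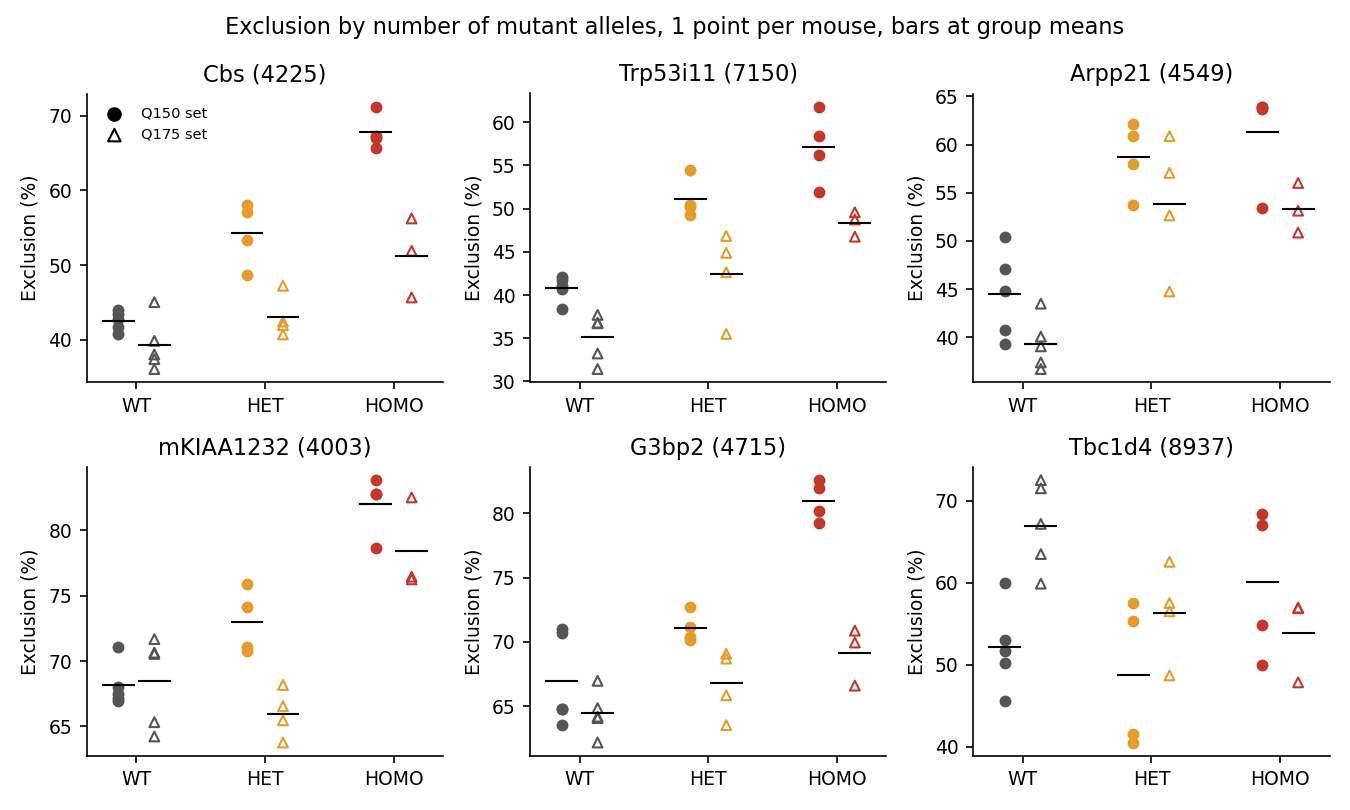
Exclusion (percent, y axis) of 6 members by genotype (WT, HET, HOMO; x axis) in the knock-in lines, circles Q150 and triangles Q175, 1 symbol per mouse and bars the means. Cbs, Trp53i11, mKIAA1232 and G3bp2 of Q150 step up in mean from WT over HET to HOMO, HET and HOMO mice overlap for Arpp21 in both lines, and Tbc1d4 is lower in Q175 HOMO mice than in WT mice.

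The members were also read by the role of their gene, from lists of symbols, beside the median over all events of 0.18 in R6/2, 0.19 in Q150 HOMO and 0.07 in Q175 HOMO. Over all events 21.1%, 19.8% and 5.60% passed higher and 7.46%, 4.09% and 1.47% lower in these comparisons, and each list's share of rises is given in the same order. RNA-binding and splicing proteins had 23 members. In R6/2 6 rose and none fell, in Q150 HOMO 8 rose and 2 fell, and in Q175 HOMO 5 rose and none fell, with median log2 changes of 0.19, 0.20 and 0.21. With centring the counts were 5 higher and 2 lower, 4 and 2, and 4 and 0. RNA-binding rises were 26.1, 34.8 and 21.7% of the list. Napor-1, which fell in R6/2 and in Q175 HOMO, could not be matched to a current symbol and is not in this list. The counts of falls therefore hold only for the listed symbols. Celf4 (listed as Brul4), a neuronal RNA-binding protein, had 35.1, 32.6 and 32.8% in WT and 43.6, 42.9 and 42.04% in HD mice of R6/2. Celf4 rose by 0.58 ± 0.10 on the log2 scale in R6/2 HD mice (limma adjusted p = 0.000883). Celf4 rose by 0.30 ± 0.10 on the log2 scale in Q150 HOMO mice (limma adjusted p = 0.0404). Rbm10, a splicing regulator, had 70.5, 65.9 and 68.2% in WT and 78.0, 80.8 and 78.1% in HD mice. Rbm10 rose by 0.81 ± 0.14 on the log2 scale in R6/2 HD mice (limma adjusted p = 0.00118). In Q175 it had 64.1, 61.7, 60.5, 66.0 and 66.1% in WT and 73.2, 67.9 and 68.1% in HOMO mice. Rbm10 rose by 0.40 ± 0.12 on the log2 scale in Q175 HOMO mice (limma adjusted p = 0.0371). The other risers in R6/2 were Rbfox2, R3hdm2 9354, a second Arpp21 exon (8339, 1.04 ± 0.22, limma adjusted p = 0.00409) and U2af1, which recognises the 3′ splice site (0.44 ± 0.12, limma adjusted p = 0.0168). Rbm34 had 40.6, 44.2, 41.2, 41.6 and 45.3% in WT and 51.3, 52.6, 56.3 and 54.8% in HOMO mice of Q150. Rbm34 rose by 0.65 ± 0.11 on the log2 scale in Q150 HOMO mice (limma adjusted p = 0.000150). Rbm34 rose by 0.42 ± 0.11 on the log2 scale in Q175 HOMO mice (limma adjusted p = 0.0110). R6/2 HD mice stood at 41.0, 60.7 and 33.7%, 1 of them far above the others. Rbm34 had a log2 change of 0.28 ± 0.29 in R6/2 HD mice, which did not pass (limma adjusted p = 0.509). Without HD mouse 868 that change was -0.18 ± 0.15 (limma adjusted p = 0.422). Snrnp70 (listed as Snrp70), the RNA-binding protein of the U1 particle, fell from 44.4, 43.6, 37.3, 41.7 and 37.3% to 36.2, 33.8, 28.9 and 34.6% in Q150. Snrnp70 fell by 0.47 ± 0.11 on the log2 scale in Q150 HOMO mice (limma adjusted p = 0.00524). The helicase Ddx50 fell as well (-0.42 ± 0.14, limma adjusted p = 0.0278). Rbm27 (0.60 ± 0.15, limma adjusted p = 0.00456), the spliceosome protein Cwc22 (0.72 ± 0.23, limma adjusted p = 0.0240) and the second R3hdm2 exon (7602, 0.38 ± 0.13, limma adjusted p = 0.0423) completed the risers of Q150 HOMO beside Clk4, Arpp21 4549 and R3hdm2 9354.

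Several of these calls rest on few mice. Celf4 lost its call in Q150 HOMO without any 1 of WT mice 1, 2 and 3 and HOMO mice 1, 2, 3 and 4, with an adjusted p from 0.0509 to 0.107. Celf4 also missed the threshold there with each mouse centred on its median event (adjusted p = 0.564), without the variance trend (adjusted p = 0.107) and with only the 2 groups compared (adjusted p = 0.0537). Rbm10 lost its call in Q175 HOMO without any 1 of WT mice 6, 7 and 8 and HOMO mice 1, 2 and 3, with an adjusted p from 0.0502 to 0.297. Rbm10 also missed the threshold there under other settings, with adjusted p from 0.0931 to 0.393. U2af1 lost its call in R6/2 without HD mouse 868 (adjusted p = 0.0591), without WT mouse 3 (adjusted p = 0.0530) and without WT mouse 6 (adjusted p = 0.0506). U2af1 also missed the threshold there with each mouse centred on its median event (adjusted p = 0.113) and without the variance trend (adjusted p = 0.0866). Rbm34 lost its call in Q175 HOMO without HOMO mouse 1 (adjusted p = 0.0610) and without HOMO mouse 3 (adjusted p = 0.0665). Rbm34 also missed the threshold there without the variance trend (adjusted p = 0.113). Ddx50 lost its call in Q150 HOMO without WT mouse 2 (adjusted p = 0.0598), without WT mouse 3 (adjusted p = 0.0861), without HOMO mouse 1 (adjusted p = 0.103) and without HOMO mouse 3 (adjusted p = 0.104). Ddx50 also missed the threshold there without the variance trend (adjusted p = 0.0995). Rbm27 lost its call in Q150 HOMO with each mouse centred on its median event (adjusted p = 0.0558). Cwc22 lost its call in Q150 HOMO without WT mouse 5 (adjusted p = 0.0518), without HOMO mouse 1 (adjusted p = 0.101) and without HOMO mouse 2 (adjusted p = 0.0763). Cwc22 also missed the threshold there with each mouse centred on its median event (adjusted p = 0.110). R3hdm2 7602 lost its call in Q150 HOMO without any 1 of WT mice 3, 4 and 5, HET mice 1, 2 and 3 and HOMO mice 1 and 2, with an adjusted p from 0.0509 to 0.172. R3hdm2 7602 also missed the threshold there under other settings, with adjusted p from 0.0624 to 0.360. The R6/2 value of Arpp21 4549 turned on 1 mouse. There the WT mice were at 94.1, 43.4 and 47.2% and the HD mice at 73.2, 73.6 and 70.5%. Arpp21 4549 had a log2 change of 0.25 ± 0.83 in R6/2 HD mice, which did not pass (limma adjusted p = 0.856). Without WT mouse 3 the change was 1.66 ± 0.21 (limma adjusted p = 0.000252), a value looked up after the mouse was seen.

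Ion channels, receptors and transporters had 10 members, of which 2 rose and 1 fell in R6/2, 2 rose in Q150 HOMO and 1 rose in Q175 HOMO (median log2 changes 0.19, 0.29 and 0.32), with centring 2 and 1, 1 and 0, and 1 and 0. Channel, receptor and transporter rises were 20, 20 and 10% of the list. In R6/2 the risers were Kcnt1 and Grin1 and the faller Atp2b3, all given above but Grin1, which had 30.8, 36.7 and 34.8% in WT and 47.4, 47.8 and 48.2% in HD mice (log2 change 0.83 ± 0.13, limma adjusted p = 0.000400) with no overlap. Adhesion proteins and synaptic scaffolds had 19 members in R6/2 (2 rose and 3 fell), 20 in Q150 (5 and 1 in HOMO) and 22 in Q175 (1 and 1 in HOMO), with medians of 0.05, 0.08 and -0.03, and with centring 2 and 4, 3 and 3, and 1 and 1. Adhesion and scaffold rises were 10.5, 25 and 4.55% of the list. Magi1, Dlg3, Shank1, Ptpro and Nrxn2 are among them, and the splice site 4 exon of Nrxn2 was the member that fell in both knock-in lines. Cytoskeletal and motor proteins had 13, 15 and 14 members, with medians of 0.55 in R6/2 (5 rose, none fell), 0.39 in Q150 HOMO (8 and 1) and 0.10 in Q175 HOMO (3 and 0), and with centring 4 and 3, 3 and 1, and 1 and 0. Cytoskeletal rises were 38.5, 53.3 and 21.4% of the list. The list was drawn by symbol and did not hold Inf2, the formin given above that fell in R6/2 and in Q175 HOMO. Sorbs2 gave 2 of the 5 rises in R6/2, 2 of the 8 rises and the only fall in Q150 HOMO, and 2 of the 3 rises in Q175 HOMO. Beside Spna2, the other rises in Q150 HOMO included the supervillin gene Svil, the formin Daam1, the kinesin Kif2a and the dynein chain Dync1i2, named here after their values were seen.

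Kinases and phosphatases had 11 members in R6/2 (4 rose and 1 fell), 11 in Q150 (4 and 0 in HOMO) and 13 in Q175 (0 and 1 in HOMO), with medians of 0.04, 0.38 and -0.05, and with centring 3 and 1, 0 and 1, and 0 and 1. Kinase and phosphatase rises were 36.4, 36.4 and 0% of the list. Gsk3b, whose 39-base exon encodes the insert of the neuronal form of the kinase, had 39.7, 40.5 and 37.1% in WT and 45.5, 48.3 and 47.1% in HD mice of R6/2. Gsk3b rose by 0.46 ± 0.09 on the log2 scale in R6/2 HD mice (limma adjusted p = 0.00289). In Q150 it had 36.9, 38.2, 37.6, 37.3 and 38% in WT, 43.2, 42.1, 41.7 and 42.5% in HET and 45.6, 46.1, 41.4 and 42.6% in HOMO mice. Gsk3b rose by 0.38 ± 0.08 on the log2 scale in Q150 HOMO mice (limma adjusted p = 0.00222). In Q175 it was 39.9, 39.97, 41.99, 39.3 and 37.9% in WT and 38.3, 40.02 and 37.8% in HOMO mice (log2 change -0.07 ± 0.08, limma adjusted p = 0.718), and mice within a group lay close together. Stk38, a kinase of the NDR family, rose from 56.2, 45.9 and 43.8% to 67.2, 77.5 and 73.3% in R6/2. Stk38 rose by 1.5 ± 0.25 on the log2 scale in R6/2 HD mice (limma adjusted p = 0.000810). Stk38 rose by 0.72 ± 0.23 on the log2 scale in Q150 HOMO mice (limma adjusted p = 0.0240). Camk2g, the gamma chain of the calcium-calmodulin kinase, had 51.7, 59.8 and 60.8% in WT and 75.5, 74.0 and 71.9% in HD mice. Camk2g rose by 1.06 ± 0.19 on the log2 scale in R6/2 HD mice (limma adjusted p = 0.00111). Gsk3b lost its call in R6/2 without the variance trend (adjusted p = 0.0681). Gsk3b lost its call in Q150 HOMO with each mouse centred on its median event (adjusted p = 0.136). Stk38 lost its call in Q150 HOMO without WT mouse 2 (adjusted p = 0.0527), without HOMO mouse 1 (adjusted p = 0.116) and without HOMO mouse 3 (adjusted p = 0.0751). Stk38 also missed the threshold there with each mouse centred on its median event (adjusted p = 0.116) and without the variance trend (adjusted p = 0.0588).

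Small GTPases and their regulators had 14, 15 and 15 members, with 2 rises and 1 fall in R6/2, 2 and 1 in Q150 HOMO and 0 and 1 in Q175 HOMO (medians 0.20, 0.23 and -0.01), and with centring 2 and 2, 0 and 2, and 0 and 2. GTPase rises were 14.3, 13.3 and 0% of the list. Kalrn, a GTPase exchange factor of dendritic spines, had 61.2, 61.6, 62.7, 61.1 and 62.4% in WT, 64.0, 65.3, 61.9 and 67.3% in HET and 68.7, 68.7, 68.4 and 65.7% in HOMO mice of Q150. Kalrn rose by 0.38 ± 0.09 on the log2 scale in Q150 HOMO mice (limma adjusted p = 0.00247). Arhgap33, a GTPase-activating protein, rose in R6/2 and in Q150 HOMO. Arhgap33 rose by 0.90 ± 0.22 on the log2 scale in R6/2 HD mice (limma adjusted p = 0.00959). Arhgap33 rose by 0.63 ± 0.16 on the log2 scale in Q150 HOMO mice (limma adjusted p = 0.00697). Kalrn lost its call in Q150 HOMO against all 10 knock-in WT mice (adjusted p = 0.138) and with each mouse centred on its median event (adjusted p = 0.150). Arhgap33 lost its call in Q150 HOMO with each mouse centred on its median event (adjusted p = 0.0638). Transcription and chromatin proteins had 21, 23 and 24 members, with 4 rises and 1 fall, 4 and 0, and 0 and 0 (medians 0.12, 0.06 and 0.05), and with centring 3 and 1, 1 and 0, and 0 and 0. Transcription and chromatin rises were 19.0, 17.4 and 0% of the list. Ncor1, a corepressor of nuclear receptors, had 64.4, 65.6 and 62.7% in WT and 77.3, 77.4 and 77.2% in HD mice of R6/2, where the HD mice almost coincided. Ncor1 rose by 0.92 ± 0.12 on the log2 scale in R6/2 HD mice (limma adjusted p = 9.78e-05). Its exclusion was 65.5, 64.8, 65.7, 66.8 and 64.2% and 73.5, 68.1, 72.6 and 73.5% in WT and HOMO mice of Q150. Ncor1 rose by 0.44 ± 0.11 on the log2 scale in Q150 HOMO mice (limma adjusted p = 0.00736). The zinc finger gene Zfp317 rose in both as well (R6/2 log2 change 1.18 ± 0.18, limma adjusted p = 0.000414; Q150 HOMO log2 change 0.82 ± 0.17, limma adjusted p = 0.00118). Ncor1 lost its call in Q150 HOMO with each mouse centred on its median event (adjusted p = 0.188).

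Ubiquitin, chaperone and autophagy proteins had 8 members in each set, with 1 rise and 1 fall in R6/2, 1 and 2 in Q150 HOMO and 0 and 0 in Q175 HOMO (medians 0.24, -0.20 and -0.07), and with centring 1 and 2, 0 and 3, and 0 and 0. Ubiquitin, chaperone and autophagy rises were 12.5, 12.5 and 0% of the list. Usp14, the deubiquitinase of the proteasome, fell in R6/2 from 35.2, 34.3 and 36.5% to 30.2, 27.7 and 29.3% without overlap. Usp14 fell by 0.41 ± 0.09 on the log2 scale in R6/2 HD mice (limma adjusted p = 0.00399). In Q150 it fell from 32.7, 32.0, 31.3, 26.7 and 30.2% to 25.5, 25.9, 24.3 and 25.8%, again without overlap. Usp14 fell by 0.37 ± 0.12 on the log2 scale in Q150 HOMO mice (limma adjusted p = 0.0336). Ubqln1, a shuttle of ubiquitylated proteins, rose in Q150 HOMO (log2 change 0.30 ± 0.09, limma adjusted p = 0.0222), and Atg16l2, a relative of an autophagy factor, in R6/2 (log2 change 1.42 ± 0.39, limma adjusted p = 0.0165) from only 18 to 46 counts per mouse. Usp14 lost its call in R6/2 without the variance trend (adjusted p = 0.0864). Usp14 lost its call in Q150 HOMO without any 1 of WT mice 1, 2 and 3 and HOMO mice 1, 2, 3 and 4, with an adjusted p from 0.0534 to 0.0814. Usp14 also missed the threshold there without the variance trend (adjusted p = 0.122). Ubqln1 lost its call in Q150 HOMO without WT mouse 4 (adjusted p = 0.0584) and without HOMO mouse 2 (adjusted p = 0.0840). Ubqln1 also missed the threshold there with each mouse centred on its median event (adjusted p = 0.505) and without the variance trend (adjusted p = 0.0842). Atg16l2 lost its call in R6/2 without HD mouse 860 (adjusted p = 0.0650). Endocytosis and vesicle proteins had 8, 7 and 7 members, with 2, 1 and 0 rises and no fall (medians 0.10, 0.12 and -0.05), and with centring 1 rise and 1 fall, 0 and 1, and 0 and 0. Endocytic rises were 25, 14.3 and 0% of the list. Epn2, an epsin of clathrin-coated pits, rose in R6/2 (log2 change 0.38 ± 0.13, limma adjusted p = 0.0426) and in Q150 HOMO (log2 change 0.33 ± 0.10, limma adjusted p = 0.0172), and Sgip1, an endocytic adaptor, in R6/2. Sgip1 rose by 1.15 ± 0.34 on the log2 scale in R6/2 HD mice (limma adjusted p = 0.0215). Epn2 lost its call in R6/2 without HD mouse 868 (adjusted p = 0.161), without HD mouse 869 (adjusted p = 0.0663), without WT mouse 4 (adjusted p = 0.158) and without WT mouse 6 (adjusted p = 0.0996). Epn2 also missed the threshold there with each mouse centred on its median event (adjusted p = 0.219) and without the variance trend (adjusted p = 0.162). Epn2 lost its call in Q150 HOMO without HOMO mouse 1 (adjusted p = 0.0589). Epn2 also missed the threshold there with each mouse centred on its median event (adjusted p = 0.392). Sgip1 lost its call in R6/2 without HD mouse 860 (adjusted p = 0.0684) and without WT mouse 4 (adjusted p = 0.0822). Members in no list numbered 141, 142 and 149, with 36 rises and 14 falls, 28 and 6, and 7 and 2 (medians 0.09, 0.19 and 0.04), and with centring 26 and 23, 16 and 17, and 5 and 2. Their rises were 25.5, 19.7 and 4.70% of these members.

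Several genes had more than 1 balanced exon, and changes within a gene were not tested against each other. Of 3 Sorbs2 members, 4678 and 4833 rose in Q150 HOMO mice while 4748 fell, from 60.4, 64.6, 68.0, 67.4 and 72.1% in WT to 49.7, 54.7, 62.9 and 59.9% in HOMO mice. Sorbs2 4748 fell by 0.60 ± 0.17 on the log2 scale in Q150 HOMO mice (limma adjusted p = 0.0134). Events 4748 and 4833 share their short junction count, so their ratios are not independent. Sorbs2 4748 lost its call in Q150 HOMO without HOMO mouse 1 (adjusted p = 0.0714). Asph, a hydroxylase of the endoplasmic reticulum, had a member close to even use (8275) that rose in R6/2 from 50.2, 53.2 and 50.9% to 61.0, 60.3 and 59.8%. Asph 8275 rose by 0.52 ± 0.10 on the log2 scale in R6/2 HD mice (limma adjusted p = 0.00147). Another Asph member with fewer counts (4218) had a similar log2 change with a wider error (0.45 ± 0.30 in R6/2) and passed in no comparison. The mitochondrial Aifm1 exons 7692 and 8024, tied by a shared short junction, had log2 changes of -0.82 ± 0.43 and -0.74 ± 0.38 in R6/2 and passed in no comparison.

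Across the 5 comparisons with WT mice, 164 of 290 members passed in none, 78 in 1, 33 in 2, 10 in 3, 5 in 4 and 0 in all 5. Of the members 43.4% passed in at least 1 and 16.6% in at least 2, where 36.5% and 15.6% of the 1922 events did. Not passing is not the same as being stable, and only exons whose 95% intervals are narrow can be said to have moved little. Over the 263 members in all 3 sets, the end of the interval farthest from 0 over the 5 comparisons lay under 0.5 on the log2 scale in 18. The tightest was Slmap, a membrane-associated protein of muscle, whose intervals reached no farther than 0.31. Exclusion was 65.8, 66.2 and 66.8% in WT and 66.5, 70.2 and 66.3% in HD mice of R6/2, 59.1 to 65.2% and 62.3 to 65.2% in WT and HOMO mice of Q150, and 60.8 to 66.3% and 59.2 to 62.3% in Q175. Rbm4b, a splicing regulator, reached 0.34, with 39.7, 41.8, 40.1, 43.5 and 41.8% in WT and 40.9, 41.2, 40.8 and 42.2% in HOMO mice of Q150, and Kirrel3, a synaptic adhesion protein, reached 0.40, with 44.6, 43.8, 45.3, 46.4 and 48.6% and 40.3, 42.7, 43.5 and 43.6%. In Q150 the HOMO mice of Slmap and Rbm4b lay within the WT range and those of Kirrel3 just below it. Unkl, a zinc finger protein and with Asph 8275 the member closest to even use, had 51.8, 46.7 and 54.2% in WT and 43.9, 41.97 and 45.4% in HD mice of R6/2, apart but not past the test. Unkl had a log2 change of -0.41 ± 0.16 in R6/2 HD mice, which did not pass (limma adjusted p = 0.0722). It had log2 changes of 0.04 ± 0.14 and 0.05 ± 0.15 in Q150 and Q175 HOMO mice.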

How the data were processed

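Cortex from 1 hemisphere of 31 mice was profiled by RASL-seq, in which per the study's methods total RNA was annealed to probe pairs for known splice junctions, captured on oligo(dT) beads, ligated, amplified and sequenced. No molecular identifiers were named, so intervals and spread cover counting and mouse error together but PCR copies are not independent molecules. The deposited values are whole counts of at least 4 for the short and the long junction of each event in each mouse, not normalized, and written with comma separators, so they were handled as values of another kind than a plain count table and count models for genes were not used. The junction counter and its version are not given in the sources used here. Per the labels the build was mm10, but the listed positions lie inside the gene of the same symbol in GRCm38 for only 261 of 1872 events. Exons and sequences were therefore taken from RefSeq and GENCODE annotation of GRCm38. They were matched by gene symbol and the exact length of the interval between the flanking exons. The match was checked by splice sites and by the shift shared with neighbouring events (205 of 210). The knock-in line was taken from the numbers of glutamines in the labels, since titles and the genotype field name the lines differently. 1 Q175 HET mouse carries different numbers in its title and in its file, and the methods give other numbers of HOMO mice per line than the labels. All 31 mice were used, and 0 columns of per-sample values were left out. 

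Exclusion was tested with limma 3.58.1 in R 4.3.3 on log2((short + 0.5)/(long + 0.5)), with a variance trend on counts, all groups of a file set in 1 fit and p-values adjusted by Benjamini-Hochberg over all events of the set with a mean of at least 10 counts, which removed none. Replicates are separate mice, described in the study as age matched with balanced sexes and, for R6/2, with littermate controls. Differences between models were tested as a contrast of the 2 changes in 1 limma fit over all mice of both sets, across all events listed in both. The fit was tested on simulated data before use. Tables and plots were made with numpy 2.4.6, pandas 2.3.3 and matplotlib 3.10.9. 

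The members, the gene lists and the tests were chosen with earlier results of these data known. Exons were named by rule: among called members with no overlap between the groups, the largest changes (up to 12 in R6/2, 8 in Q150 HOMO, 6 in Q175 HOMO and 4 in each HET group and HOMO against HET), the members called in all 3 models, up to 3 differences per pair of models, all called RNA-binding members and up to 3 of each other list by adjusted p, up to 5 genes with more than 1 member, the 2 members nearest even use, the 3 with the narrowest intervals and those at the limits of the rule. Some members and 1 exon sequence that fall under these rules are not reported here. Alternatives were the pseudocount, the count minimum, a minimum change, centring, the variance trend, a quasi-binomial model, the groups in the fit, a block for low and high mouse numbers, all 10 knock-in WT mice, a narrower WT range, membership from other sets and leaving out each mouse.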

Additional observations from a re-analysis of the deposited data

Results flagged for a closer look

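Of 94 groups of 4 or 5 mice examined for a mouse far from the others, 3 held one, and chance alone gives about 1 in 20. WT mouse 5 of the knock-in set was highest for the Dlg3 exon listed as mKIAA1232, at 71.1% where the other 4 lay from 66.9 to 68.1%. Q150 HOMO mouse 4 was lowest for Arpp21 4549, at 53.4% where the others lay from 63.7 to 63.9%, and lowest for Kalrn, at 65.7% where the others lay from 68.4 to 68.7%. 

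Between R6/2 and Q150 HOMO, the largest differences in log2 change were 2.08 for Rbfox2, -1.99 for BC068281 and -1.97 for Ccar1. Between R6/2 and Q175 HOMO they were -2.52 for BC068281, 2.07 for Tbc1d4 and 1.98 for Spna2. Between Q150 and Q175 HOMO they were 1.28 for Tbc1d4, 1.26 for Abat and 1.08 for Gde5. Each passed limma's test of the difference itself, in a comparison in which 7.20, 14.1 and 4.46% of members did, and model, age, strain and, for R6/2, the series of mouse numbers cannot be told apart in them.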

How the results depend on the processing

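Of the 302 recomputed counts and means, 239 kept their direction and stayed within 1.5 times or 1 SD of the reported value, and of 1920 recomputed values for the 110 named changes 1703 kept their direction and side of the threshold, 209 fell short of it, 3 passed it (Unkl in R6/2, with centring at -0.56, in the quasi-binomial model and without R6/2 WT mouse 4) and 5 turned sign. Those 5 were changes near 0 in R6/2 that did not pass: with centring Slmap was -0.049 and Kirrel3 -0.056, and Rbm4b ranged from -0.13 without HD mouse 868 to 0.10 without HD mouse 869. The cause was not tested for any of them. Requiring a log2 change beyond 0.5 is a stricter question by construction. It left 27 of 267 members in R6/2, 4 of 273 in Q150 HOMO and 8 of 263 for R6/2 against Q175. It left 0 in Q150 HET, Q175 HET, Q175 HOMO, both HOMO against HET comparisons, the other 2 comparisons of models and the shared members. Of all events 0.0560% passed so in Q150 HET, 2.18% in Q150 HOMO and 0.163% in Q175 HOMO. The share was 0% in Q175 HET and in both HOMO against HET comparisons, and was not taken for R6/2 or between models. Members with WT exclusion from 40 to 60% numbered 101 to 109, and of these 27 passed in R6/2, 1 in Q150 HET, 21 in Q150 HOMO, 0 between Q150 HOMO and HET, 0 in Q175 HET, 7 in Q175 HOMO, 0 between Q175 HOMO and HET, 6, 13 and 2 between R6/2 and Q150, R6/2 and Q175, and Q150 and Q175, and 2 in all 3 models. Without the variance trend 0 members passed in Q175 HET, 6 in Q175 HOMO, 0 between Q175 HOMO and HET, 12 between R6/2 and Q150, 2 between Q150 and Q175 and 2 in all 3 models. The shares of all events then were 0.0544% in Q175 HET, 2.12% in Q175 HOMO and 0.0544% between Q175 HOMO and HET. With centring 6 passed in Q150 HET (2.24% of all events did), 2 in Q175 HET (0.489% of all events) and 4 between Q150 and Q175. With a block for low and high mouse numbers 24 passed in Q150 HET, 12 between Q150 HOMO and HET, 13 in Q175 HOMO and 0 between Q175 HOMO and HET, and against all 10 knock-in WT mice 27 passed in Q150 HET and 2 in Q175 HET. The block gave 7.68, 4.48, 4.46 and 0.163% of all events in that order, and the 10 WT mice 8.26 and 0.635%. For Q175 HET the quasi-binomial model gave 5 (1.20% of all events passed), the 2 groups alone 3 (0.707% of all events) and membership from the other sets 2. The difference in mean exclusion over members was 3.56 points in R6/2 from summed counts and 3.62 among members at 40 to 60%, 2.72 in Q150 HET as a median over events, and among members at 40 to 60% 1.39 in Q175 HOMO and 1.25 between Q175 HOMO and HET. The cause of these shifts was not tested. 

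When each mouse was left out in turn, members that passed numbered 70 to 80 in R6/2 and 5 to 11 in all 3 models. They numbered 0 to 11 in Q150 HET, 56 to 78 in Q150 HOMO and 3 to 6 between Q150 HOMO and HET. In Q175 they numbered 0 to 8 in HET, 12 to 24 in HOMO and 1 to 2 between HOMO and HET. The counts over all events moved as well. Of 1785 Q150 events 4 to 66 passed in HET, 300 to 447 in HOMO and 14 to 44 between HOMO and HET. Of 1839 Q175 events 2 to 33, 74 to 135 and 12 to 18 passed in the same order. All events were not recounted so for R6/2 or for all 3 models. The differences in mean exclusion ranged from 2.26 to 3.03 points in R6/2, 1.81 to 2.09 in Q150 HET, 3.03 to 3.67 in Q150 HOMO, 1.12 to 1.76 between Q150 HOMO and HET, -0.0772 (without Q175 HET mouse 2) to 0.594 in Q175 HET, 0.399 to 0.870 in Q175 HOMO and -0.0329 (without Q175 HET mouse 1) to 0.639 between Q175 HOMO and HET. Leaving out mice of these means and splitting them by series of mouse numbers were chosen after seeing the data. No paired analysis was possible because the mouse numbers are not shared between the groups compared. At low counts, as for Rbfox2, Wnk2, Ica1 and Atg16l2, only large shifts were detectable.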
